A study of Homo sapiens with 12 samples.

Results

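The libraries described here are the 8 of 12 that came from LNCaP cells depleted of BRG1, 4 taken 72 h and 4 taken 144 h after transfection. They were chosen by their labels, and the comparison is of prolonged with early loss of BRG1 among depleted cells. LNCaP is a prostate cancer cell line that grows in response to androgen. At each time there were 2 libraries for each of 2 siRNAs against SMARCA4, the gene that encodes BRG1, and the siRNAs carry the numbers 2 and 3 in the deposited table. The other 4 libraries came from cells given a non-targeting siRNA (si-NT), 2 at each time, and entered no test of time in depleted cells. They were used to show which changes also took place in cells that kept BRG1. They also entered a test of the difference between the changes over all 12 libraries, and the centring of list medians by library. The cells of the later time were split and transfected again at 72 h, so that time, passage, the second transfection and cell density cannot be told apart in either arm. No source says that replicates were separate cultures, so p-values measure the spread between these libraries, which may be technical. Loss was transient and by siRNA in 1 cell line, and the knockdown left part of the mRNA in place.

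BRG1 is an ATPase of the SWI/SNF complex, which slides and evicts nucleosomes and so opens enhancers and promoters to transcription factors. BRM, encoded by SMARCA2, is the alternative ATPase of the same complex. In luminal prostate cells SWI/SNF works at enhancers bound by FOXA1 and the androgen receptor, and BRG1 is known for its link to growth of prostate cancer cells.

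All values are TPM, a transcript abundance corrected for gene length and scaled to the same sum in every library, ERCC spike-ins included. How many reads stand behind a value cannot be read from TPM, so errors come from the spread of replicates and library depth is unknown. The luminal keratin KRT8 was at 339 to 500.3 TPM in the 8 libraries and the luminal factor FOXA1 at 160.4 to 239.9 TPM. The 4 basal markers summed to at most 0.39 TPM, with KRT5 listed at 0 in all 8, and the 4 leukocyte markers to at most 1.09 TPM, with CD3E listed at 0 in all 8. The 2 endothelial markers matched (VWF and CDH5) summed to at most 0.47 TPM. The 4 fibroblast markers summed to between 3.10 and 9.13 TPM, nearly all of it COL1A1, while COL1A2 was listed at 0 in all 8. In a principal component analysis of the 8 libraries the first component held 24.3% of the variance, of which 85.2% lay between the times. Scores ran from -24.3 to -12.8 at 72 h and from 8.7 to 34.3 at 144 h, and replicate 2 of siRNA 3 at 144 h lay farthest out. That library also had the highest share of ERCC spike-ins, 1.97% of TPM against 1.04% to 1.34% in the other 7. Of the controls, si-NT replicate 2 at 72 h stood apart from the other 3 in cell cycle genes, as the values below show. The labels of 1 depleted library at 72 h name both siRNAs. GLO1, a gene chosen after its values were seen, separated the siRNAs without overlap, at 54.6 to 63.7 TPM in the 4 columns of siRNA 2 and 206 to 243 TPM in the 4 of siRNA 3, beside 152 to 203 TPM in si-NT cells.

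The targeted mRNA stayed low and was slightly lower on average at 144 h. SMARCA4 (ENSG00000127616.13, GRCh37 chromosome 19, 11071608 to 11190102, forward strand) was at 21.7 and 19.02 TPM in the siRNA 2 libraries and 17.5 and 19.1 TPM in the siRNA 3 libraries at 72 h. At 144 h it was at 15.9 and 16.2 TPM with siRNA 2 and 11.4 and 17.4 TPM with siRNA 3. All 4 libraries of 144 h lay below all 4 of 72 h (two-sided exact permutation test, p = 0.0286, the smallest that 4 against 4 allows), at 15.2 ± 2.63 TPM (SD, n = 4) after 19.3 ± 1.75 TPM (SD, n = 4). The closest values, both with siRNA 3, were 17.48 TPM at 72 h and 17.44 TPM at 144 h. Of all genes tested, 7.13% were lower at 144 h without overlap. In the limma fit across all genes the log2 difference of -0.34 (SE 0.12) did not pass the test (adjusted p = 0.147). In si-NT cells SMARCA4 was at 73.4 to 107 TPM.

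Among the other subunits of SWI/SNF, 25 of 29 reached the limit for testing and 0 passed the test in either direction by limma. At an unadjusted p under 0.05, 5 were lower and 1 was higher, beside 12.9% and 11% of all genes tested. The subunits had a median log2 difference of -0.06, beside -0.04 over all genes tested. SMARCA2 was at 19.5 ± 1.95 TPM at 72 h and 14.7 ± 1.69 TPM at 144 h (SD, n = 4 each), with no overlap and a log2 difference of -0.38 (adjusted p = 0.0841). BCL7C, an accessory subunit, was at 31.7 TPM and then 43.6 TPM on average (log2 difference 0.43, adjusted p = 0.0879).

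Between 72 h and 144 h of BRG1 loss, 277 genes fell and 469 rose, of 15885 tested (limma with siRNA as a block, log2(TPM + 1), Benjamini-Hochberg adjusted p under 0.05). These are 1.74% and 2.95% of the genes tested, and 62.9% of the calls were rises. At an unadjusted p under 0.05, 2056 genes were lower (12.9%) and 1748 higher (11%), and 57.2% of all genes tested had a negative difference. Counts in the lists below are read against these shares. Most changes were modest, with a median log2 difference of -0.50 among the falls and 0.57 among the rises. Beyond a log2 difference of 1, 15 genes fell (0.0944%) and 46 rose (0.29%), and beyond 1.5, 3 fell (0.0189%) and 11 rose (0.0692%). The 4 libraries of 144 h lay below the 4 of 72 h without overlap for 1132 genes (7.13%) and above them for 933 (5.87%). Protein-coding genes made up 230 of the 277 falls and 420 of the 469 rises, where they made up 75% of the genes tested.

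The siRNAs share no library in this comparison, so each gave its own estimate. Of 409 genes lower with siRNA 2 alone at an unadjusted p under 0.05, 379 (92.7%) were also lower on average with siRNA 3, where 63.6% of all genes were lower. Of 976 genes higher with siRNA 2, 870 (89.1%) were also higher with siRNA 3, beside 36.3% of all genes. Read the other way, 1511 of 1766 genes lower with siRNA 3 (85.6%) and 868 of 945 genes higher (91.9%) had the same direction with siRNA 2, beside 47.3% and 52.5% of all genes. Across the 15885 genes the changes with the siRNAs had a Pearson r of 0.36, where genes are not independent replicates. A difference between the siRNAs in the change over time passed the test for 8 genes (0.0504%, interaction term in limma), of which 6 were short noncoding RNAs and 2 pseudogenes, and for 433 genes at an unadjusted p under 0.05.

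**Figure D1:**
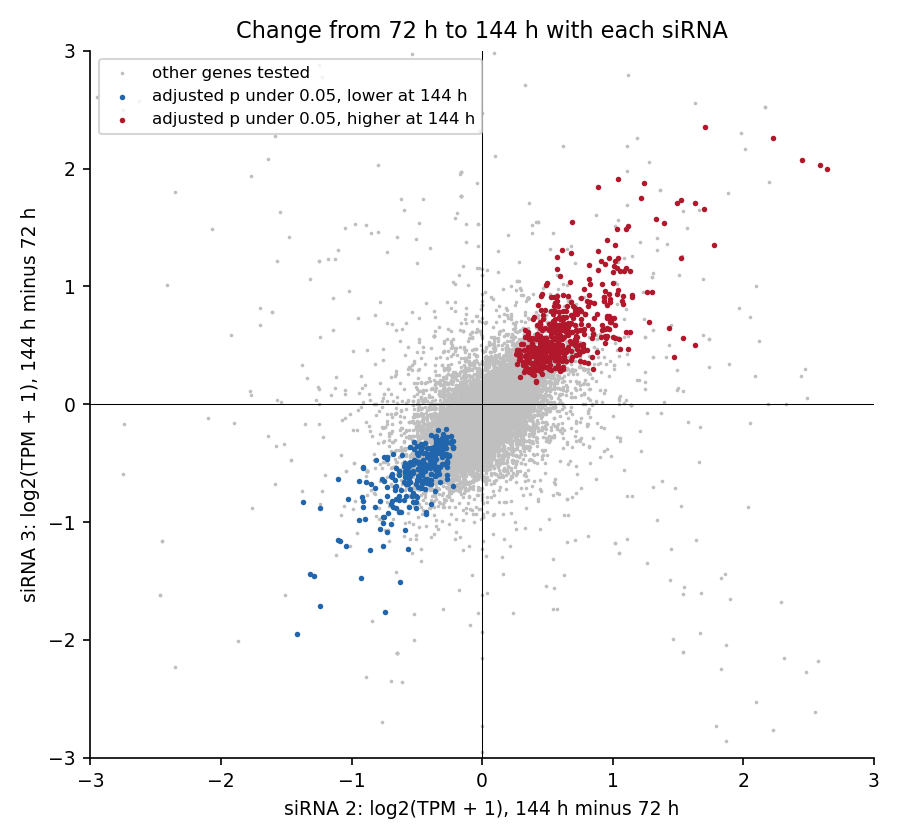
Difference of log2(TPM + 1) between 144 h and 72 h with siRNA 2 (horizontal axis) and siRNA 3 (vertical axis), 1 point for each gene tested, blue for the 277 genes lower and red for the 469 higher at an adjusted p under 0.05. The coloured points lie in the lower left and upper right, which follows from the fit over both siRNAs, and 26 of 15885 genes lie outside the axes, which end at 3.

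The largest rise of a protein-coding gene was that of NBL1, a secreted antagonist of BMP ligands (ENSG00000158747.9, GRCh37 chromosome 1, 19923473 to 19984949, forward strand). NBL1 was at 1.56 and 3.10 TPM with siRNA 2 and 2.60 and 1.71 TPM with siRNA 3 at 72 h, and at 13.1, 15.4, 11.98 and 16.3 TPM in the same order at 144 h. This was 6.33-fold higher on average, with a log2 difference of 2.25 (SE 0.18, adjusted p = 0.00235), while si-NT cells held 0.53 to 1.15 TPM at both times. NUDT19-DT, a divergent long noncoding transcript beside NUDT19, went from 9.49, 16.9, 9.97 and 9.27 TPM to 103, 69.6, 40.6 and 42.2 TPM (log2 difference 2.32, SE 0.21, adjusted p = 0.00255). All 4 later values lay above all 4 earlier ones in both genes. PRSS22, a serine protease of epithelia, rose from 2.13 ± 1.17 TPM to 11.3 ± 2.16 TPM (SD, n = 4 each), where si-NT cells held at most 0.90 TPM.

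Abundant mRNAs rose as well. SAT1, which acetylates spermidine and spermine and so starts polyamine breakdown (ENSG00000130066.12, GRCh37 chromosome X, 23801290 to 23804327, forward strand), was at 96.9, 144, 135 and 103 TPM at 72 h. At 144 h SAT1 was at 459, 325, 329.7 and 425 TPM, which was 3.21-fold higher on average (log2 difference 1.68, SE 0.17, adjusted p = 0.00324). The groups lay far apart, and si-NT cells held 54.8 to 77.7 TPM. CLU, which encodes the extracellular chaperone clusterin, rose from 22.6 ± 4.38 TPM to 63.9 ± 14.3 TPM (adjusted p = 0.00324), and GNMT, the glycine N-methyltransferase that consumes S-adenosylmethionine, from 13.6 ± 3.35 TPM to 36.1 ± 2.90 TPM (SD, n = 4 each, adjusted p = 0.00274).

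ID2, an inhibitor of DNA binding that blocks bHLH transcription factors, scattered between libraries. ID2 was at 69.7 and 27.5 TPM with siRNA 2 and 56.7 and 107 TPM with siRNA 3 at 72 h, and at 165, 115, 181 and 368 TPM at 144 h (log2 difference 1.67, SE 0.34, adjusted p = 0.0308). The highest early value was close to the lowest late value. S100P, a calcium-binding protein, rose from 10.1 ± 5.38 TPM to 28.3 ± 4.04 TPM (SD, n = 4 each, adjusted p = 0.0474), while in si-NT cells it went from 21.2 and 23.8 TPM to 9.17 and 6.94 TPM. The axon guidance ligand SLIT1 and the adaptor SHC2 completed the 10 largest rises among genes of at least 5 TPM without overlap, with log2 differences of 1.60 and 1.48.

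**Figure D2:**
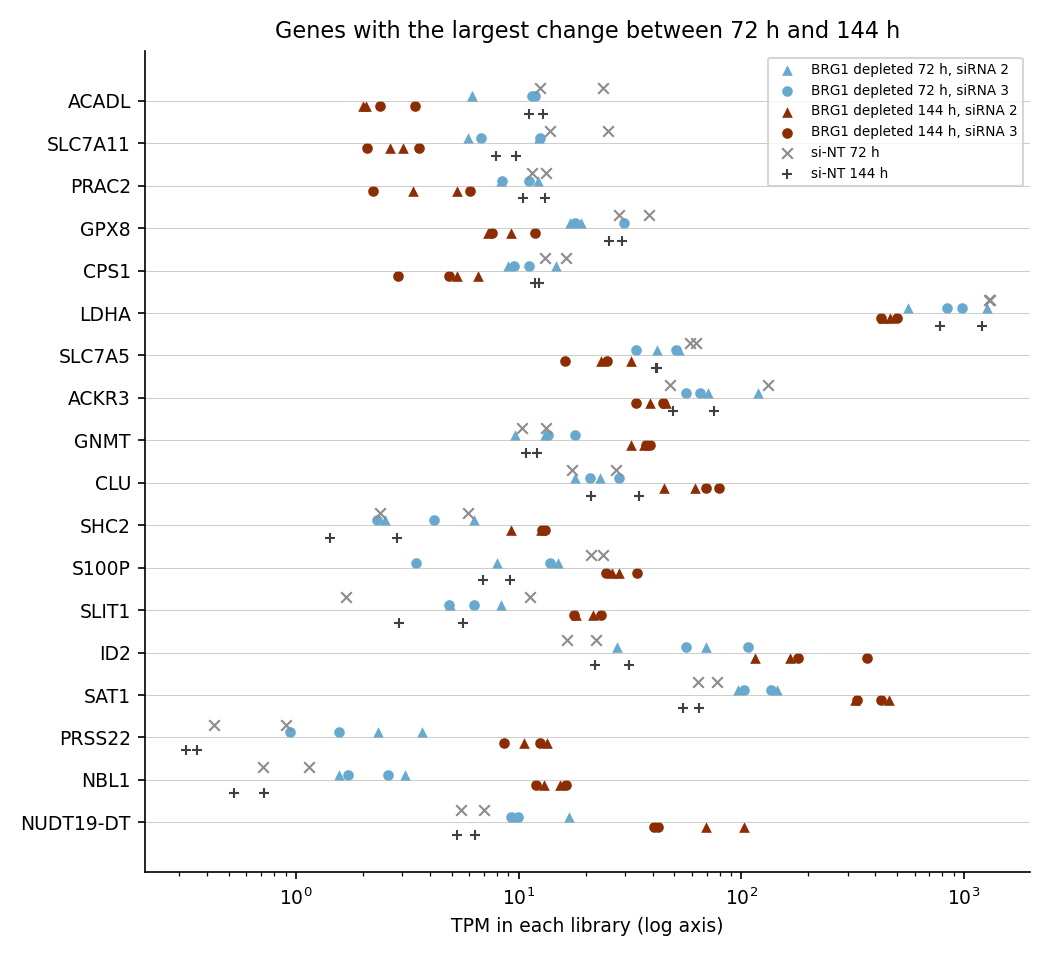
TPM in each library on a log axis for 18 of the 20 genes with the largest falls (upper 8) and rises (lower 10), with blue for BRG1 depleted cells at 72 h, brown at 144 h, triangles for siRNA 2, circles for siRNA 3 and crosses for si-NT cells. Blue and brown points do not overlap in any of these genes, which the rule for naming them required.

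Among the falls, 2 short noncoding RNAs came first by the rule and were listed at 0 in all 4 libraries of 144 h. SNORD67, a small nucleolar RNA, was at 25.6, 14.3, 9.21 and 6.45 TPM at 72 h, but in si-NT cells it was listed at 0 in both libraries of 72 h and at 8.23 and 15.3 TPM at 144 h. A Y RNA gene on chromosome 10 (ENSG00000251803.1), from a family of near-identical copies whose reads may be split, was at 22.9, 25.9, 4.22 and 5.91 TPM at 72 h. No fold is given against a group at 0. Short noncoding RNAs had a median SD of 1.33 on the log2 scale over the 8 libraries, against 0.20 for protein-coding genes, and 2 of 227 tested fell and 1 rose.

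Among protein-coding genes with a mean of at least 5 TPM, the largest falls included enzymes and transporters of metabolism. ACADL, an acyl-CoA dehydrogenase of fatty acid oxidation (ENSG00000115361.3, GRCh37 chromosome 2, 211051850 to 211090171, reverse strand), was at 6.17, 6.21, 11.5 and 11.9 TPM at 72 h and at 2.00, 2.07, 3.42 and 2.38 TPM at 144 h. The values did not overlap, and the log2 difference was -1.48 (SE 0.14, adjusted p = 0.00274). SLC7A11, the cystine importer, went from 5.92, 12.4, 12.4 and 6.75 TPM to 3.04, 2.66, 3.57 and 2.08 TPM (log2 difference -1.38, SE 0.25, adjusted p = 0.0233). In si-NT cells SLC7A11 also went down, from 13.8 and 25.3 TPM to 9.72 and 7.91 TPM. CPS1, the carbamoyl phosphate synthetase of the urea cycle, fell from 11.1 ± 2.57 TPM to 4.91 ± 1.53 TPM, and GPX8, a glutathione peroxidase of the endoplasmic reticulum, from 20.9 ± 5.97 TPM to 8.99 ± 2.06 TPM (SD, n = 4 each). PRAC2, a transcript of the prostate and distal colon, fell from 10.0 ± 1.93 TPM to 4.23 ± 1.75 TPM. The scavenging chemokine receptor ACKR3 fell from 77.8 ± 28.2 TPM to 40.7 ± 5.6 TPM. In si-NT cells ACADL, CPS1, GPX8, PRAC2 and ACKR3 had log2 differences of -0.50, -0.25, -0.27, -0.07 and -0.38.

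Of 30 genes of the lysosome and of autophagy, all tested, 11 rose in depleted cells and 0 fell, 36.7% beside a background of 2.95% for rises. The other 19 did not pass, and 5 of the 30 had a negative difference. The median log2 difference of the list was 0.25, the same with siRNA 2 and 0.23 with siRNA 3, beside -0.04 over all genes. In si-NT cells its median difference was -0.04. NPC1, which exports cholesterol from lysosomes (GRCh37 chromosome 18, 21086148 to 21166470, reverse strand), was at 144, 152, 117 and 118 TPM at 72 h and at 260.2, 218, 194 and 206 TPM at 144 h (log2 difference 0.72, SE 0.07, adjusted p = 0.00324). All 8 values lay above the si-NT range of 41.7 to 49.9 TPM. TFEB, the transcription factor that drives lysosomal genes, was at 8.36, 9.42, 8.73 and 7.79 TPM and then at 14.8, 15.3, 12.8 and 18.7 TPM (log2 difference 0.77, SE 0.12, adjusted p = 0.019), while si-NT cells stayed between 7.74 and 8.66 TPM. The cholesterol carrier NPC2 rose from 97.7 ± 6.44 TPM to 129 ± 7.99 TPM, and the acid ceramidase ASAH1 from 93.6 ± 3.96 TPM to 126 ± 12.8 TPM (SD, n = 4 each). Others of the 11 were the protease CTSD, the sialidase NEU1, the proton pump subunits ATP6V0D1 and ATP6V1H, and the autophagy genes GABARAPL1 and WIPI1, with log2 differences from 0.33 to 0.55. The cathepsins CTSB and CTSL (0.17 and 0.03) and the autophagy kinase ULK1 (-0.11) did not pass the test. Scaled to the ERCC spike-ins, 0 of the 30 passed and the list's median was 0.09, where the median of all genes was -0.18.

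The amino acid stress response is driven by ATF4 when amino acids or protein folding fall short. Of 31 of its genes 11 fell and 0 rose, 35.5% beside a background of 1.74% for falls, and all 31 had a negative log2 difference, with a median of -0.44. PHGDH, the first enzyme of serine synthesis, was at 342, 428, 422 and 322 TPM at 72 h and at 210.1, 246, 249 and 222 TPM at 144 h (log2 difference -0.70, SE 0.11, adjusted p = 0.0191). SHMT2 and MTHFD2, which pass serine carbon into the mitochondrial folate cycle, went from 252 ± 26.9 TPM to 157 ± 19.7 TPM and from 122 ± 22.1 TPM to 66.3 ± 8.48 TPM (SD, n = 4 each). The glycyl-tRNA synthetase GARS1 went from 175 ± 25.0 TPM to 112 ± 4.04 TPM, and the large amino acid transporter SLC7A5 from 44.8 ± 8.73 TPM to 24.1 ± 6.41 TPM (SD, n = 4 each). ASNS, PSAT1, PSPH, WARS1, SLC7A11 and the stress factor NUPR1 made up the 11. ATF4 itself had a log2 difference of -0.51 (adjusted p = 0.0618). Scaled to the ERCC spike-ins, 5 of the 31 passed and the list's median was -0.61.

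The same list moved in si-NT cells. All 31 genes were lower at 144 h there too, with a median of -0.47, and 9 of the 11 falls had a si-NT difference of the same sign and at least 0.5 times the size. With each si-NT library left out in turn the median of the list in si-NT cells lay between -0.57 and -0.36. DDIT3, a stress factor of the list, had a log2 difference of -1.54 in si-NT cells and -0.39 in depleted cells, where it did not pass the test.

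The amino acid response element bound by ATF4 was searched as TGATGCAA on both strands in promoters of RefSeq on GRCh38.p14, from 250 bases before to 50 bases after each start, which 192 of 259 named genes that fell and 10316 of 13580 named genes tested had. It stood in 6 of the 192 (3.12%), in 2 of 341 promoters of genes that rose (0.587%) and in 47 of the 10316 (0.456%). In the list of 31 it stood in 3 of 27 promoters (11.1%). The 6 genes, chosen after their values were seen, are shown with 10 bases on either side, since all 6 lie outside the list of 31. They are read along the gene's own strand, and capitals mark the element, written TTGCATCA where it lies on the other strand.
CARS1, chr11:3057408-3057435, reverse strand: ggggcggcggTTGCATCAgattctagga
IARS1, chr9:92293693-92293720, reverse strand: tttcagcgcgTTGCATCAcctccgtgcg
MARS1, chr12:57488054-57488081, forward strand: ccggttccggTTGCATCAgcgagggatt
MTHFD1L, chr6:150866347-150866374, forward strand: ccgccggctcTGATGCAAtcgcgccggg
RSL24D1, chr15:55196931-55196958, reverse strand: ggtgacggggTTGCATCActtcctctca
SH3BGRL, chrX:81201962-81201989, forward strand: aaaatagaatTGATGCAAacagcctgtt
CARS1, IARS1 and MARS1 encode the tRNA synthetases of cysteine, isoleucine and methionine, and their elements begin 2, 13 and 4 bases before the start. MTHFD1L encodes an enzyme of the mitochondrial folate cycle and RSL24D1 a factor of large ribosomal subunit assembly. Their log2 differences were -0.59, -0.59, -0.56, -0.57 and -0.57 in that order, and that of SH3BGRL was -0.62. CARS1 and MARS1 also went down in si-NT cells, by log2 differences of -0.53 and -0.40, while those of the other 4 lay between -0.20 and -0.11.

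Of 27 genes of glycolysis and hypoxia 26 were tested, 1 fell and 1 rose, beside 1.74% and 2.95% of all genes, and 13 were lower at an unadjusted p under 0.05, with a median log2 difference of -0.47 in depleted cells and -0.40 in si-NT cells. LDHA, which turns pyruvate to lactate, was at 560 and 1263 TPM with siRNA 2 and 976 and 841 TPM with siRNA 3 at 72 h. At 144 h LDHA was at 435, 463, 499 and 425 TPM (log2 difference -0.94, SE 0.21, adjusted p = 0.0452), so that the early libraries scattered and the late ones did not. The log2 difference of LDHA in si-NT cells was -0.42. HK1, the hexokinase of most tissues, rose from 93.7 ± 8.85 TPM to 135 ± 13.1 TPM (SD, n = 4 each, adjusted p = 0.0133). The hypoxia targets VEGFA, BNIP3 and CA9 had log2 differences of -0.88, -0.67 and -1.20 in depleted cells and of -1.12, -0.77 and -1.43 in si-NT cells, and did not pass the test. Scaled to the ERCC spike-ins, 4 of the 26 genes passed, beside 181 of 15885 over all genes, and the list's median was -0.63. Of these 4, 3 were hypoxia response genes, of which 0 passed without that scaling.

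Of 8 metallothioneins, which bind zinc and copper, 4 were tested and 3 fell (75%, beside 1.74% of all genes). Scaled to the ERCC spike-ins, 2 of the 4 passed. MT1X was at 164, 150, 147 and 173 TPM and then at 86.1, 109, 82.7 and 98.0 TPM (log2 difference -0.75, SE 0.10, adjusted p = 0.011). MT2A and MT1G had log2 differences of -0.90 and -1.20, each with overlap between the times. The si-NT differences of the 3 were -0.44, -0.49 and -0.33, and reads of these near-identical genes may be split between copies.

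Genes of DNA replication and mitosis had small negative differences that single genes seldom passed. Of 27 licensing genes, which load and fire the replicative helicase, 0 passed the test, and 25 were negative, with a median of -0.28. At an unadjusted p under 0.05, 5 were lower and 0 higher, beside 12.9% and 11% of all genes. With siRNA 2 the median was -0.10 and with siRNA 3 it was -0.44. Of 43 mitotic genes 1 fell (2.33%, beside a background of 1.74%), 26 had an unadjusted p under 0.05, all lower, and all 43 were negative, with a median of -0.38 (-0.24 with siRNA 2 and -0.52 with siRNA 3). The licensing factors CDC6 and CDT1 had log2 differences of -0.38 and -0.34 (adjusted p = 0.23 and 0.325), the helicase subunits MCM2 and MCM5 of -0.28 and -0.20 (0.293 and 0.501), CDC45 of -0.33 (0.268), ORC6 of -0.28 (0.307), the checkpoint kinase CHEK1 of -0.37 (0.208) and cyclin A2, CCNA2, of -0.39 (0.17). Of 34 genes of DNA synthesis, 17 of the E2F and pocket protein families and 26 of the DNA damage response, 0 passed the test, with 4 lower and 1 higher, 4 lower, and 6 lower at an unadjusted p under 0.05 and medians of -0.18, -0.24 and -0.25, beside 12.9% lower among all genes. In bulk RNA, fewer cycling cells and less of these mRNAs per cell cannot be told apart.

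The medians by library show how the libraries differed. For the 43 mitotic genes, each centred on its mean over 12 libraries on the log2 scale, the median was 0.13 and -0.15 with siRNA 2 and 0.05 and 0.03 with siRNA 3 at 72 h. At 144 h it was -0.46, -0.08, -0.22 and -0.71, so that 3 of 4 late libraries lay below all 4 early ones and replicate 2 of siRNA 3 lay lowest. In si-NT cells it was 0.47 and -0.17 at 72 h and 0.48 and 0.63 at 144 h. The 4 controls thus split into 3 alike and replicate 2 of 72 h, which lay below all 4 depleted libraries of its time. The median change in si-NT cells was 0.40 with all 4 libraries and 0.08 without that library. For licensing genes it was 0.48 and 0.04.

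SMC4, a core subunit of condensin, was the mitotic gene that fell, and its promoter is shown for the CHR element that marks genes of the G2 and M phases. SMC4 was at 56.6, 52.6, 51.6 and 48.6 TPM at 72 h and at 37.0, 45.1, 36.5 and 27.7 TPM at 144 h (log2 difference -0.52, SE 0.11, adjusted p = 0.034). The times did not overlap, and si-NT cells held 71.0 and 47.3 TPM and then 73.6 and 79.6 TPM. Capitals mark the CHR element, searched as TTTGAA on both strands, which here lies on the reverse strand from 75 bases before the start of RefSeq on GRCh38.p14.
SMC4, chr3:160399400-160399699, forward strand: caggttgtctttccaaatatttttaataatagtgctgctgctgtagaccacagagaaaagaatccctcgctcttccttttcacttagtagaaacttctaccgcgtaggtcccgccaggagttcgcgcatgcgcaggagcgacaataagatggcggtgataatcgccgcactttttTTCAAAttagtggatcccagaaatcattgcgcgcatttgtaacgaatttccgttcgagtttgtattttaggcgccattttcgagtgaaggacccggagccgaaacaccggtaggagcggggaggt
The CHR element stood in 27 of 38 promoters of the mitotic list (71.1%), in 22 of 192 of genes that fell (11.5%), in 17 of 341 of genes that rose (4.99%), in 9.02% of those tested and in 15.4% of all 27305 promoters in the table. The E2F motif, searched as GGCGGGAA, stood in 4 of 23 licensing promoters (17.4%), in 12 of 192 of genes that fell (6.25%) and in 5.28% of those tested. CCAAT stood in 40.6% of the promoters of genes that fell, 34.9% of those that rose and 37.3% of those tested. The AP-1 motif, TGANTCA, stood in 5.21%, 3.23% and 3.96%.

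**Figure D3:**
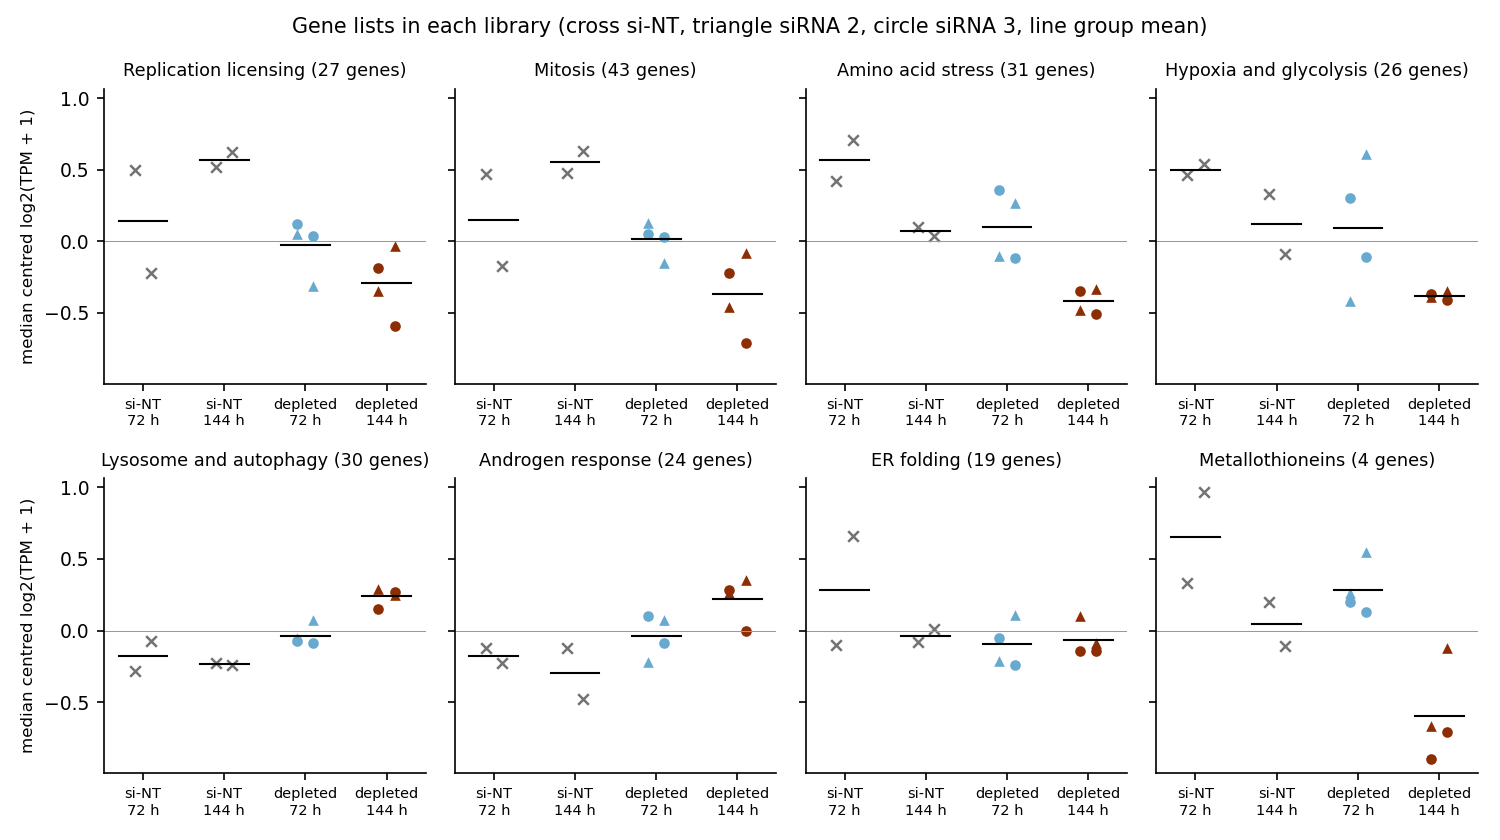
Median over the genes of each list of log2(TPM + 1), centred for each gene on its mean over the 12 libraries, with crosses for si-NT, triangles for siRNA 2, circles for siRNA 3 and a line at the mean of each group. The lysosome and amino acid stress lists separate depleted cells of 144 h from those of 72 h, while in the replication and mitosis lists the times overlap and 1 si-NT library of 72 h lies far below the other.

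Of 25 targets of the androgen receptor 24 were tested, 3 rose and 0 fell (12.5%, beside a background of 2.95% for rises), and 12 were higher at an unadjusted p under 0.05, beside 11% of all genes. The median log2 difference was 0.35, and in si-NT cells it was -0.11, or -0.33 to 0.05 with a si-NT library left out. Scaled to the ERCC spike-ins, 0 of the 24 passed and the median was 0.18. PLPP1, a lipid phosphatase, was at 406, 452, 437 and 410.2 TPM and then at 556, 595, 529 and 591 TPM (log2 difference 0.41, SE 0.07, adjusted p = 0.0202). The scaffold HOMER2 rose from 54.9 ± 6.19 TPM to 97.3 ± 19.1 TPM, and the elongation factor ELL2 from 14.9 ± 0.614 TPM to 20.7 ± 2.39 TPM (SD, n = 4 each). In si-NT cells PLPP1, HOMER2 and ELL2 had log2 differences of 0.03, -0.01 and 0.30, where ELL2 had 0.44 in depleted cells. KLK2 did not pass, at 132 ± 74.8 TPM and 99.4 ± 23.9 TPM (SD, n = 4 each, adjusted p = 0.74), and KLK3 had a log2 difference of 0.58 (adjusted p = 0.23). VAV3, a guanine nucleotide exchange factor, was at 2.32 ± 0.576 TPM and 1.58 ± 0.36 TPM (SD, n = 4 each, adjusted p = 0.235), where si-NT cells held 10.7 to 25.5 TPM. PCAT1 lay below the limit for testing.

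Of 12 genes of luminal identity 11 were tested and 2 rose (18.2%, beside 2.95%), and 0 passed with ERCC scaling. The keratin KRT8 went from 339, 355, 375 and 374 TPM to 415, 446, 447 and 500.3 TPM (log2 difference 0.32, SE 0.06, adjusted p = 0.0287), and the pioneer factor GATA2 from 109 ± 15.0 TPM to 140 ± 17.7 TPM with overlap (SD, n = 4 each, adjusted p = 0.0494). FOXA1 was at 200 ± 27.6 TPM and 180 ± 17.9 TPM (SD, n = 4 each, adjusted p = 0.382). Of 16 steroid enzymes tested 3 rose: the sulfotransferase SULT2B1 from 39.5 ± 2.48 TPM to 63.5 ± 8.26 TPM, the dehydrogenase HSD17B14 from 4.16 ± 2.86 TPM to 9.34 ± 2.4 TPM with overlap, and CYP1A1, a target of the aryl hydrocarbon receptor, from 1.88 ± 0.542 TPM to 5.26 ± 1.28 TPM (SD, n = 4 each). The 3 are 18.8% of the enzymes tested, beside 2.95% of all genes, and 2 of the 16 passed with ERCC scaling. The 5 UGT2B genes tested, which glucuronidate androgens, were all negative with a median of -0.43 and did not pass.

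Of 23 genes of cell death tested 3 rose (13%, beside 2.95%), all of the BCL2 family, and 0 passed with ERCC scaling. BIK and BMF, which encode BH3-only proteins that promote apoptosis, rose from 24.3 ± 4.07 TPM to 48.4 ± 10.5 TPM and from 9.79 ± 1.67 TPM to 20.6 ± 5.09 TPM, and BCL2L1, which encodes the survival protein BCL-XL, from 64.0 ± 2.68 TPM to 87.3 ± 3.75 TPM (SD, n = 4 each). Each lay without overlap and with log2 differences of 0.96, 0.98 and 0.44 (adjusted p = 0.0215, 0.0227 and 0.0149). The caspases CASP8 and CASP9 had log2 differences of -0.31 and 0.14 and did not pass. Of 26 targets of p53, 3 fell and 1 rose: the damage recognition gene DDB2 (-0.53), SPATA18 (-0.45) and the death receptor TNFRSF10B (-0.38) fell and the antiproliferative BTG2 (0.53) rose, each with overlap between the times. The falls stand beside 1.74% and the rise beside 2.95% of all genes, and 0 of the 26 passed with ERCC scaling. In si-NT cells BTG2 had a log2 difference of 0.28, and those of the 3 falls lay between -0.10 and -0.02.

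Of 12 immediate early genes tested 2 rose (16.7%, beside 2.95%) and 0 passed with ERCC scaling. The AP-1 subunit JUN rose from 20.3 ± 3.35 TPM to 32.1 ± 1.64 TPM and JUNB, another, from 17.5 ± 1.42 TPM to 30.8 ± 6.95 TPM (SD, n = 4 each). SOCS2, a feedback inhibitor of STAT5 signalling, was the 1 of 6 such genes tested that rose (16.7%, beside 2.95%). It was at 10.6, 16.5, 19.7 and 16.3 TPM and then at 24.2, 32.1, 30.9 and 23.5 TPM (log2 difference 0.79, SE 0.18, adjusted p = 0.0428). In si-NT cells it went the other way, from 3.63 and 4.14 TPM to 1.65 and 1.63 TPM. TUBB3, a tubulin of neurons, was the 1 of 4 neuroendocrine genes tested that rose (25%, beside 2.95%). It went from 21.4 ± 1.52 TPM to 34.7 ± 5.40 TPM (SD, n = 4 each, adjusted p = 0.0108). With ERCC scaling 0 of the 6 and 0 of the 4 passed.

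In some further lists 1 or 2 genes passed, beside 1.74% of all genes for falls, 2.95% for rises and 4.7% for both. Of 29 genes of sterol and fatty acid synthesis tested, the elongase ELOVL6 fell (-0.68) and the sterol desaturase SC5D rose (0.31), together 6.9%. Of 14 NRF2 targets tested, malic enzyme ME1 fell (-0.47, 7.14%). Of 2 genes of the senescence secretome tested, IGFBP5 fell (-0.52, 50%). Of 76 cytosolic ribosomal proteins tested, RPL4 fell (1.32%), from 4490 ± 253 TPM to 3580.2 ± 126 TPM (SD, n = 4 each). ELOVL6, ME1 and IGFBP5 overlapped between the times. In si-NT cells ELOVL6 and IGFBP5 had log2 differences of 0.53 and 0.44, and those of ME1, SC5D and RPL4 lay between -0.03 and 0.01. No gene passed among 13 of the G1 phase (2 higher and 1 lower at an unadjusted p under 0.05 by limma, where all genes gave 11% and 12.9%), 19 of protein folding in the endoplasmic reticulum (3 and 1), 18 of the interferon response (5 and 0) and 13 encoded by mitochondria (1 and 0).

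To see which changes also took place in cells that kept BRG1, each called gene was read in si-NT cells. Of the 277 falls, 34 (12.3%) had a si-NT difference of the same sign and at least 0.5 times the size, 24 had an opposite one of that size and 219 less than either. Of the 469 rises these numbers were 19 (4.05%), 38 and 412. The median si-NT difference was -0.02 over the rises and 0.00 over the falls to 2 decimals. The difference between the changes, tested as an interaction over 12 libraries with limma, passed for 3 genes (0.0189%), SNORD67, NBL1 and MEAF6, and for 1902 at an unadjusted p under 0.05. Unlike the test of time in depleted cells, this fit had no siRNA block, so differences between the siRNAs counted as spread. MEAF6, a subunit of histone acetyltransferase complexes, was at 162 to 182 TPM and then at 250.1 to 265 TPM in depleted cells, and at 89.1 and 92.4 TPM and then 68.8 and 65.8 TPM in si-NT cells. At an unadjusted p under 0.05 the interaction held for 174 of the 277 falls (62.8%) and 350 of the 469 rises (74.6%), beside 12% of all genes tested, though these genes were chosen by the depleted side of the same difference. These numbers depended on each si-NT library. In place of 1902 genes at an unadjusted p under 0.05 there were 938 without replicate 2 of 72 h, 942 without replicate 2 of 144 h, 1491 without replicate 1 of 144 h and 2686 without replicate 1 of 72 h. In the same order, the 33 of 43 mitotic genes became 3, 11, 27 and 42, the 16 of 27 licensing genes 0, 4, 11 and 22, and the 9 of 30 lysosome and autophagy genes 3, 7, 6 and 16.

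**Figure D4:**
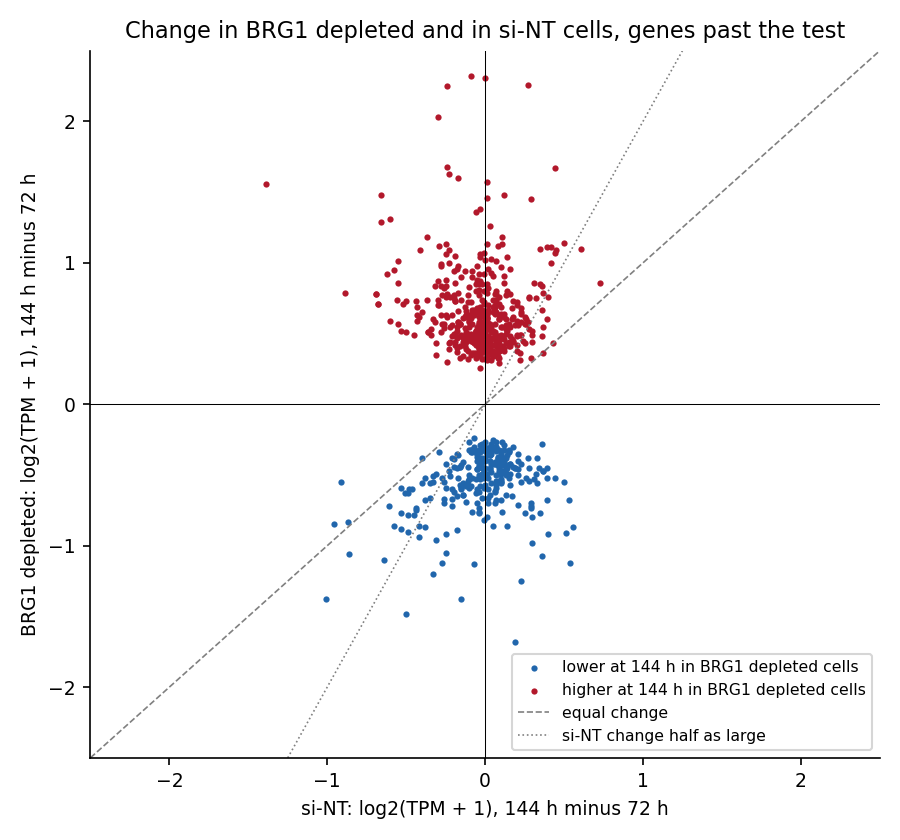
Difference of log2(TPM + 1) between 144 h and 72 h in si-NT cells (horizontal axis, 2 libraries a time) and in BRG1 depleted cells (vertical axis, 4 libraries a time) for the 746 genes past the test, with a dashed line for equal change and a dotted line for a si-NT change 0.5 times as large. Most points stand near 0 on the horizontal axis, a group of falls lies near the dashed line, and 2 genes lie outside the axes, which end at 2.5.

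The number of calls depended on single libraries. With each of the 8 left out in turn, falls numbered 16 to 283 and rises 80 to 537. The total went from 746 to 96 without replicate 2 and 126 without replicate 1 of siRNA 3 at 72 h, to 137 without replicate 2 of siRNA 3 at 144 h, and to 103 and 199 without replicates 1 and 2 of siRNA 2 at 144 h. It was 374 without replicate 1 of siRNA 2 at 72 h. In all 8 of these fits, 8 of the falls and 70 of the rises passed, among them ACADL, MT1X, PRAC1 and RSL24D1 and NBL1, SAT1, CLU, GNMT, SLIT1, PRSS22, NUDT19-DT, NPC1, TUBB3 and MEAF6. SNORD67 and the Y RNA gene, listed at 0 in depleted cells at 144 h, were also among the 8 falls. Of the 8, MT1X and PRAC1 had a si-NT difference of the same sign and at least 0.5 times the size. Scaled to the ERCC spike-ins, 181 genes passed, of which 50.8% rose, against 62.9% without that scaling, and the median of all genes moved from -0.04 to -0.18. Of the 181, 67 were among the 746 genes called without that scaling. Without replicate 2 of siRNA 3 at 144 h, an alternative chosen after seeing the data, ERCC scaling gave 37 genes, of which 83.8% rose, and a median of -0.01. Of the 37, 34 were among the 746.

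**Figure D5:**
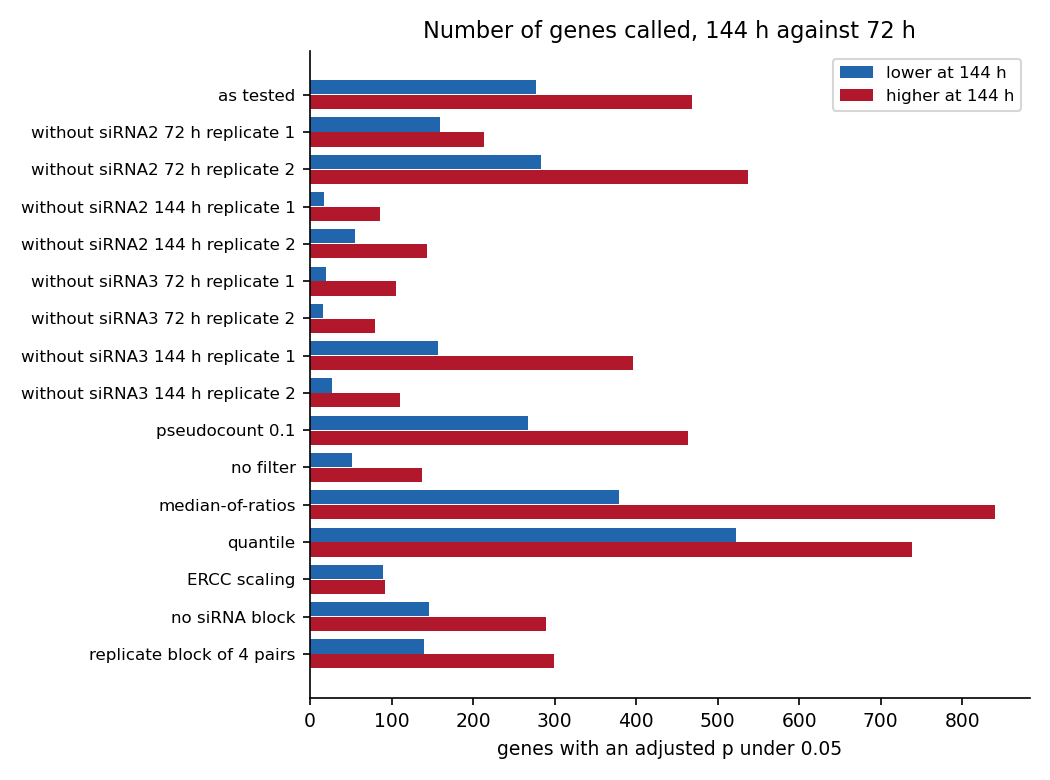
Number of genes lower (blue) and higher (red) at 144 h than at 72 h at an adjusted p under 0.05, as tested and with each library left out or 1 setting changed. Bars start at 0, the number as tested is 277 and 469, and among the left-out libraries replicate 2 of siRNA 3 at 72 h gives the fewest falls, 16.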

How the data were processed

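RNA-seq of 12 LNCaP libraries was analysed. The authors added ERCC spike-ins, made stranded mRNA libraries, aligned reads to hg19 (GRCh37) with STAR, counted genes and deposited TPM with 2 decimals for 63568 genes and 92 spike-ins. The submitters' processing notes name Trim Galore 0.11.2, FastQC and STAR 2.4.0j. Their ERCC normalisation of counts is not kept in TPM, and depth is unknown. Columns were matched to groups by siRNA, time and replicate in their names, since the table numbers the siRNAs 2 and 3 and the labels 1 and 2. All value columns were matched, and 0 pairs of libraries were identical.

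Genes were tested where 2 or more of the 8 depleted libraries reached 1 TPM, which left 15885, on log2(TPM + 1) with limma 3.58.1 in R 4.3.3 (eBayes with trend, siRNA as a block, Benjamini-Hochberg adjustment), with 5 residual and 3.64 prior degrees of freedom. This scale understates the change of low genes. Lists were described by counts and medians. Genes were named by a rule: SMARCA4, genes the study names for RNA-seq or blots, the 10 largest falls and 10 largest rises among 517 called genes with a symbol, a mean of at least 5 TPM and no overlap (186 falls and 331 rises), and up to 4 called genes of each list. Some genes of the rule are not reported here. The members, lists and rules were chosen with earlier results of these data known. GRCh37 positions come from GENCODE 44 lifted over, and promoters from RefSeq. On simulated data for this comparison, 97.5% of 200 genes changed by 1 on the log2 scale were recovered among 15885, with 16 others called. The 200 had a mean of at least 5 TPM, noise was normal and independent between genes and libraries, and smaller changes were not simulated. Most called genes had smaller changes, so their recovery is not known from it. Alternatives were another pseudocount, filters, scalings, blocks, limits, each siRNA alone and each library left out. Python 3.11.15, pandas 2.3.3 and matplotlib 3.10.9 were used.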

Additional observations from a re-analysis of the deposited data

Results flagged for a closer look

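The change over time differed between BRG1 depleted and si-NT cells by the interaction test for 3 genes. The depleted change minus the si-NT change was 2.49 on the log2 scale for NBL1 (adjusted p = 0.0137) and 1.02 for MEAF6 (adjusted p = 0.0064). For SNORD67 it was -7.35 (adjusted p = 0.000406), a value that depends on the pseudocount since the gene was listed at 0 in 6 of 12 libraries.

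Among 144 sets of 4 libraries examined, for 72 genes at both times, 9 held a library far from the other 3 by Dixon's criterion, which chance gives for about 1 set in 20. In siRNA 2 replicate 2 at 72 h, ORC6 was low at 12.5 TPM, CASP8 was high at 26.5 TPM and NUDT19-DT was high at 16.9 TPM. In siRNA 3 replicate 1 at 72 h, CDT1 was high at 17.7 TPM and GPX8 high at 29.8 TPM. In siRNA 3 replicate 2, CDC6 was low at 12.7 TPM at 144 h and ELOVL6 low at 26.1 TPM at 72 h. In siRNA 2 replicate 1, SHC2 was low at 9.25 TPM at 144 h and CYP1A1 high at 2.69 TPM at 72 h.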

How the results depend on the processing

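The counts of genes lower at 144 h than at 72 h (277) and genes higher at 144 h than at 72 h (469) changed by over 1.5 times under several settings, and the cause was not tested. Without a filter on low values they were 52 and 137, with quantile normalisation 522 and 739, with ERCC scaling 89 and 92, and with ERCC scaling without replicate 2 of siRNA 3 at 144 h, chosen after seeing the data, 6 and 31. Without the siRNA block they were 146 and 290, at an adjusted p under 0.01 they were 6 and 64, beyond a log2 difference of 1 they were 15 and 46 and beyond 1.5 they were 3 and 11. Median-of-ratios scaling gave 841 rises and a fit without the trend 182 falls. With 2 against 2 libraries, siRNA 2 alone gave 1 and 2 and siRNA 3 alone 5 and 4. With each library left out they ranged from 16 to 283 and from 80 to 537, and every called gene kept its sign. With a replicate block added to siRNA they were 120 and 293, and with a replicate block of 4 pairs 140 and 299. Whether same-numbered libraries came from the same culture is not known. Their deviations correlated at -0.01, 0.08, -0.06 and 0.15, which does not settle it. The block of 4 pairs left 56 of 72 named genes on their side of the threshold. The si-NT times lay apart in the same direction, without overlap, for 63 of the falls and 67 of the rises. With 2 against 2 libraries chance often gives such a separation, and its share over all genes is not given here. Falls also seen in si-NT cells by size (34) were 4 at the full size, and rises (19) were 1. With any of the 4 si-NT libraries left out these were 29 to 45 and 29 to 43, and the 3 genes that differed from si-NT became 1 to 10 with any of 12 libraries left out (10 without replicate 1 of siRNA 3 at 144 h, 8 without replicate 2 of siRNA 2 at 72 h, and 1 without replicate 2 of si-NT at 72 h or replicate 1 at 144 h). Leaving out si-NT libraries, or any library for the comparison with si-NT, was chosen after seeing the data. With ERCC scaling 32 of the 72 named genes lost the call, and no named gene reversed under any alternative tried. Depth is not known from TPM, and 1 gene of the naming rule lay below the filter.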

Other observations

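Single genes of ribosome assembly among the falls, beside RSL24D1, are given first. They were chosen after their values were seen and no list of them was tested. NPM1, a nucleolar chaperone, went from 2291 ± 75.3 TPM to 1571 ± 177 TPM (SD, n = 4 each), with a log2 difference of -0.55 (adjusted p = 0.0194, limma) and 0.10 in si-NT cells. NCL, which encodes nucleolin, had a log2 difference of -0.45 and NOP58, a core protein of box C/D small nucleolar particles, of -0.49. NLE1 and RSL1D1, further factors of ribosome assembly, had log2 differences of -0.50 and -0.45. The si-NT differences of NCL, NOP58, NLE1 and RSL1D1 lay between 0.14 and 0.21.

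Single genes among the rises are given next, also chosen after their values were seen and with no list tested. LAMB2, a laminin chain, had a log2 difference of 0.88. The tetraspanin CD9 went from 658 ± 26.8 TPM to 1018 ± 71.1 TPM and TMSB4X, which binds actin monomers, from 101 ± 13.6 TPM to 216 ± 54.9 TPM (SD, n = 4 each). The ephrin ligand EFNB2 and the Eph receptor EPHA2 had log2 differences of 0.96 and 0.68. SYTL2, SYT7, RAB26 and VAMP8, which act in vesicle traffic, had 1.09, 0.86, 0.84 and 0.61. The carbonic anhydrase CA12 and the water channel AQP3 rose by log2 differences of 1.10 and 0.92.

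Of the polyamine pathway, SAT1 rose while ODC1, the first enzyme of polyamine synthesis, went from 161 ± 29.4 TPM to 111 ± 20.5 TPM (SD, n = 4 each), with overlap (log2 difference -0.52, adjusted p = 0.0195, limma). SRM and SMS, the synthases of spermidine and spermine, had log2 differences of -0.17 and -0.01 and did not pass the test.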
